A study of Arabidopsis thaliana with 24 samples.

Results

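The tetraspanin family of Arabidopsis thaliana was followed through the arrays by the probe sets whose symbol in the array annotation is TET and a number. Of the 22810 probe sets of the array, 15 carried such a symbol, and each of them stood for 1 gene. A total of 7 of the 15, TET2, TET3, TET5, TET6, TET7, TET8 and TET10, gave a signal above the floor of the deposited values and were tested. Their loci are AT2G19580 (TET2), AT3G45600 (TET3), AT4G23410 (TET5), AT3G12090 (TET6), AT4G28050 (TET7), AT2G23810 (TET8) and AT1G63260 (TET10). The other 8 lay at the floor on every array. The RefSeq gene table lists 17 genes of the family by symbol or synonym, and the remaining ones, TET17 and TRN2 (also known as TET1), were not analysed here.

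Tetraspanins are small proteins that cross the membrane several times and gather partner proteins into membrane domains. In plants they sit largely in the plasma membrane, and TET8 is used as a marker of extracellular vesicles, which carry small RNAs and proteins out of the cell. TRN2 is known for its part in leaf patterning and in auxin distribution. ARF7 and ARF19 encode auxin response factors, transcription factors that activate genes when auxin is sensed.

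The samples were 7-day-old whole seedlings grown in shaken liquid medium with 1.5% sucrose under 16 h of light and 8 h of dark. They came from the nph4-1 arf19-1 double mutant, from nph4-1 (ARF7 mutated), from arf19-1 (ARF19 mutated) and from wild type Columbia (Col), and all mutants were in the Columbia ecotype. Seedlings of each genotype were given the auxin indole-3-acetic acid (IAA) at 5 µM for 2 h at 24 °C, or the ethanol solvent as the control, which gave 8 groups of 3 arrays. Each gene was represented by 1 mutant allele, and levels of ARF7 and ARF19 themselves were not analysed here. In whole seedlings, fewer cells of a type and less RNA per cell cannot be told apart.

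The 24 arrays had median log2 signals between 6.645 and 6.758, and each had 35.6% to 36.7% of its values at the floor, which is 50 in linear units or 5.64 in log2. The arrays Col control 3 and nph4-1 IAA 1 were unlike the rest of their groups, and limma gave them weights of 0.19 and 0.14 where an average array has 1. Calls that changed without 1 or both of them are named below. Of the markers listed to check the tissue, 0 of 10 for shoot and 1 of 10 for root had a tested probe set of their own in the annotation. That marker, the root hair expansin EXPA7, ran from 6.43 to 8.08 in log2, above the floor on every array, so the seedling label could be checked for root only. The annotation gave 1 gene for 8616 of the 15757 tested probe sets. The other listed markers had no probe set of their own in it, so their signal is not known here.

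The members without a signal were TET4, TET9, TET11, TET12, TET13, TET14, TET15 and TET16. They lay at 5.64 in all 24 arrays, which bounds their signal at 50 in linear units in every genotype, with and without IAA, and gives no order among the groups. TET16 and TET11 are direct neighbours in the RefSeq table, and both were in this set. TET9 is a close relative of TET8, and TET11 and TET12 are known from pollen and sperm cells.

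The 7 tested members were above the floor on all 24 arrays, so none of them entered the tests through a single group. Their 8 group means covered a narrow range, from 0.38 in log2 for TET5 to 0.70 for TET8. For comparison with that range, the SD of 3 arrays within a group ran from 0.02 to 0.37 over the members. With all arrays, the highest mean belonged to the Col control arrays for TET3, TET5, TET7 and TET10, to arf19-1 control for TET2 and TET6, and to nph4-1 IAA for TET8.

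In order of level, TET2 had log2 means of 7.76 in arf19-1 control, 7.75 in Col control, 7.73 in nph4-1 control, 7.66 in nph4-1 IAA and 7.60 in nph4-1 arf19-1 control, which differed from their neighbours by less than the SE of a difference, 0.11. Below them lay nph4-1 arf19-1 IAA at 7.44, Col IAA at 7.23 and arf19-1 IAA at 7.09, each further from its neighbour than that SE. TET3 fell into an upper set of Col control (8.54), arf19-1 control (8.53), nph4-1 control (8.47) and nph4-1 IAA (8.41) and a lower set of nph4-1 arf19-1 control (8.20), Col IAA (8.10), nph4-1 arf19-1 IAA (8.02) and arf19-1 IAA (8.02).

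TET10 was highest in Col, at 7.88 with and 7.95 without IAA. It then had 7.75 in nph4-1 IAA, and the 5 other groups lay from 7.59 to 7.47 with steps below their SE of 0.12. For TET5 the Col control mean of 7.86 was followed by 7.67 in nph4-1 arf19-1 IAA, and the arf19-1 IAA mean of 7.48 was the lowest. TET6 was highest in arf19-1 control, at 7.94, and lowest in both groups of the double mutant, at 7.53. The lowest TET7 mean was that of nph4-1 arf19-1 IAA, 8.72, and the highest that of Col control, 9.24.

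**Figure D1:**
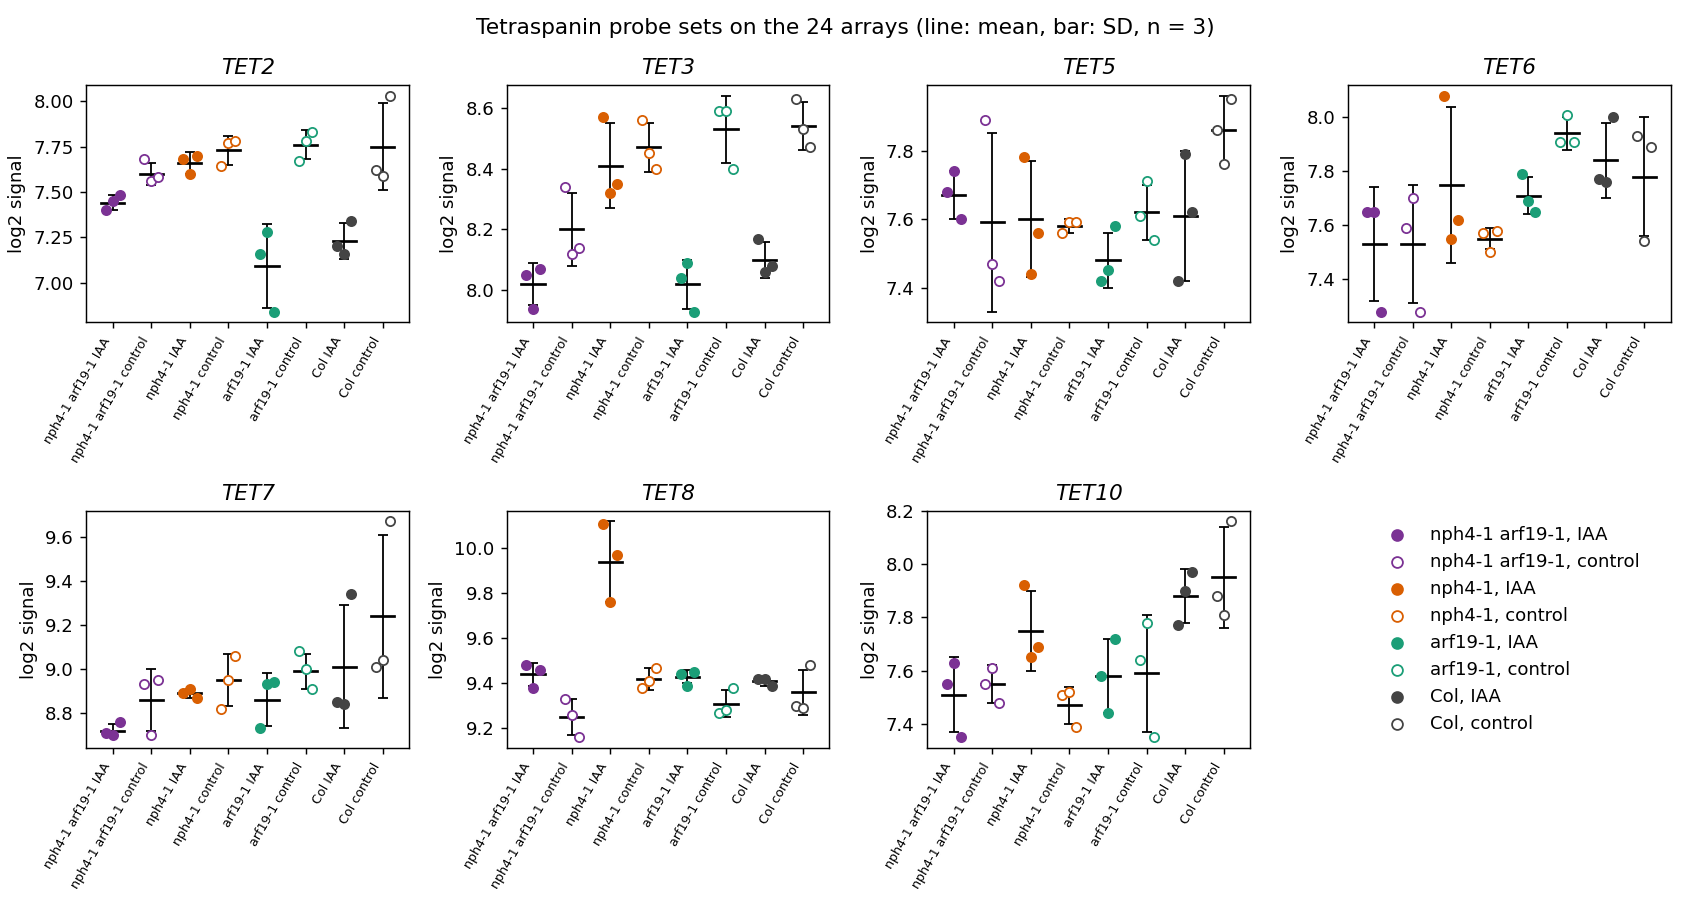
The log2 signal (vertical axis) of the 7 tetraspanin probe sets is plotted for the 8 groups (horizontal axis), with 1 point per array, filled for IAA and open for control, a line at the mean and a bar for the SD of 3 arrays. TET8 stands out on the nph4-1 IAA arrays, at 9.76 to 10.11, and TET2 and TET3 lie lower with IAA than without it in Col and arf19-1.

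The first comparison asked how the members responded to IAA in each genotype. TET2, and TET3, which is found at plasmodesmata, fell with IAA in arf19-1 and in Col. In nph4-1 neither of them passed the test, and TET8 rose. In the double mutant no member passed.

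In arf19-1 TET2 had log2 signals of 7.16, 7.28 and 6.84 with IAA, against 7.67, 7.78 and 7.83 without it. In Col the values were 7.20, 7.16 and 7.34 with IAA and 7.62, 7.59 and 8.03 without. All IAA arrays lay below all control arrays in both genotypes, and the highest control value was that of Col control 3. The fall was 1.58-fold in arf19-1 (log2 change -0.66, SE 0.11, 95% interval -0.90 to -0.43, adjusted p = 0.00026 in limma) and 1.43-fold in Col (-0.51, SE 0.11, interval -0.75 to -0.28, adjusted p = 0.003). Without Col control 3 and nph4-1 IAA 1 the Col value was -0.37 (limma adjusted p = 0.022).

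In nph4-1 the TET2 signals were 7.68, 7.60 and 7.70 with IAA, against 7.64, 7.77 and 7.78 without it, and the groups overlapped. The log2 change was -0.07 (SE 0.11, interval -0.30 to 0.17). In the double mutant they were 7.40, 7.45 and 7.48 with IAA and 7.68, 7.56 and 7.58 without, which did not overlap, but the change of -0.16 (SE 0.11, interval -0.40 to 0.07) did not pass.

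TET3 fell in the same genotypes as TET2. In arf19-1 its log2 signals were 8.04, 8.09 and 7.93 with IAA, against 8.59, 8.59 and 8.40 without it, and in Col they were 8.17, 8.06 and 8.08 with IAA and 8.63, 8.53 and 8.47 without. The groups did not overlap in either genotype. The fall was 1.42-fold in arf19-1 (log2 change -0.51, SE 0.09, interval -0.69 to -0.33, adjusted p = 0.00033 in limma) and 1.35-fold in Col (-0.44, SE 0.09, interval -0.62 to -0.25, adjusted p = 0.0013).

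With both ARF genes mutated, TET3 gave 8.05, 7.94 and 8.07 with IAA and 8.34, 8.12 and 8.14 without, a change of -0.18 (SE 0.09, interval -0.36 to 0.01) that did not pass. In nph4-1 it gave 8.57, 8.32 and 8.35 with IAA, against 8.56, 8.45 and 8.40 without it. Those arrays overlapped, and the change was -0.06 (SE 0.09, interval -0.24 to 0.13). Over both treatments the TET3 signals of the double mutant ran from 7.94 to 8.34 and those of nph4-1 from 8.32 to 8.57.

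TET8, the vesicle marker, behaved differently. On the nph4-1 arrays its log2 signal was 10.11, 9.76 and 9.97 with IAA, against 9.38, 9.41 and 9.47 without it. Every IAA array lay above every control array, and nph4-1 IAA 1, the array with the lowest weight, held the highest value. The rise was 1.44-fold (log2 change 0.53, SE 0.08, interval 0.36 to 0.70, limma adjusted p = 0.00031). Without Col control 3 and nph4-1 IAA 1 it was 0.44 (limma adjusted p = 0.00096).

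In the other genotypes TET8 had smaller differences with IAA, and none of them passed in the main fit. The double mutant had 9.48, 9.38 and 9.46 with IAA and 9.33, 9.26 and 9.16 without, a log2 change of 0.19 (SE 0.08, interval 0.03 to 0.36) with an unadjusted limma p of 0.026 and an adjusted p of 0.93. In arf19-1 the values were 9.44, 9.39 and 9.45 with IAA, against 9.27, 9.28 and 9.38 without it, a change of 0.12 (SE 0.08). In Col they were 9.42, 9.42 and 9.39 with IAA and 9.30, 9.29 and 9.48 without, a change of 0.05 (SE 0.08, interval -0.12 to 0.22). The groups did not overlap in the double mutant or arf19-1, and they did in Col, where Col control 3 was the highest of the 6 arrays. With array quality weights the arf19-1 change was 0.15 and passed (limma adjusted p = 0.015).

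The TET8 mean of nph4-1 IAA, 9.94 (SD 0.18, n = 3), was the highest of the 8 groups. The other 7 means lay between 9.25 in the double mutant without IAA and 9.44 in the double mutant with IAA, and neighbours in that order differed by less than the fit's SE of 0.08.

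By count, 1 of 7 members was called in nph4-1 (TET8, higher) where 2.52% of all 15757 tested probe sets were called, 2 of 7 in arf19-1 (both lower) against 10.1%, and 2 of 7 in Col (both lower) against 12.9%. In the double mutant 0 of 7 passed in limma against 0.419% of all probe sets, and 1 of 7, TET8, had an unadjusted p under 0.05. The shares of all probe sets, here and below, are at the adjusted threshold, and none is given for unadjusted p-values. The median log2 change of the 7 members was -0.04 in the double mutant, 0.01 in nph4-1, -0.14 in arf19-1 and -0.23 in Col. Over all tested probe sets the medians of these 4 comparisons lay between -0.012 and 0.004. The fall of the Col median did not hold without Col control 3 and nph4-1 IAA 1. It was then -0.01, with 3 members positive and 4 negative. The nph4-1 median was then -0.06, and those of the double mutant and arf19-1 were unchanged.

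When only the 6 arrays of a genotype were fitted, the calls in arf19-1 held, while those of TET8 in nph4-1 (limma adjusted p = 0.097) and of TET2 (0.11) and TET3 (0.06) in Col did not. Whether the 3 arrays of each group came from separate cultures is not stated in the labels, so the p-values measure the spread between these arrays, which may be technical.

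**Figure D2:**
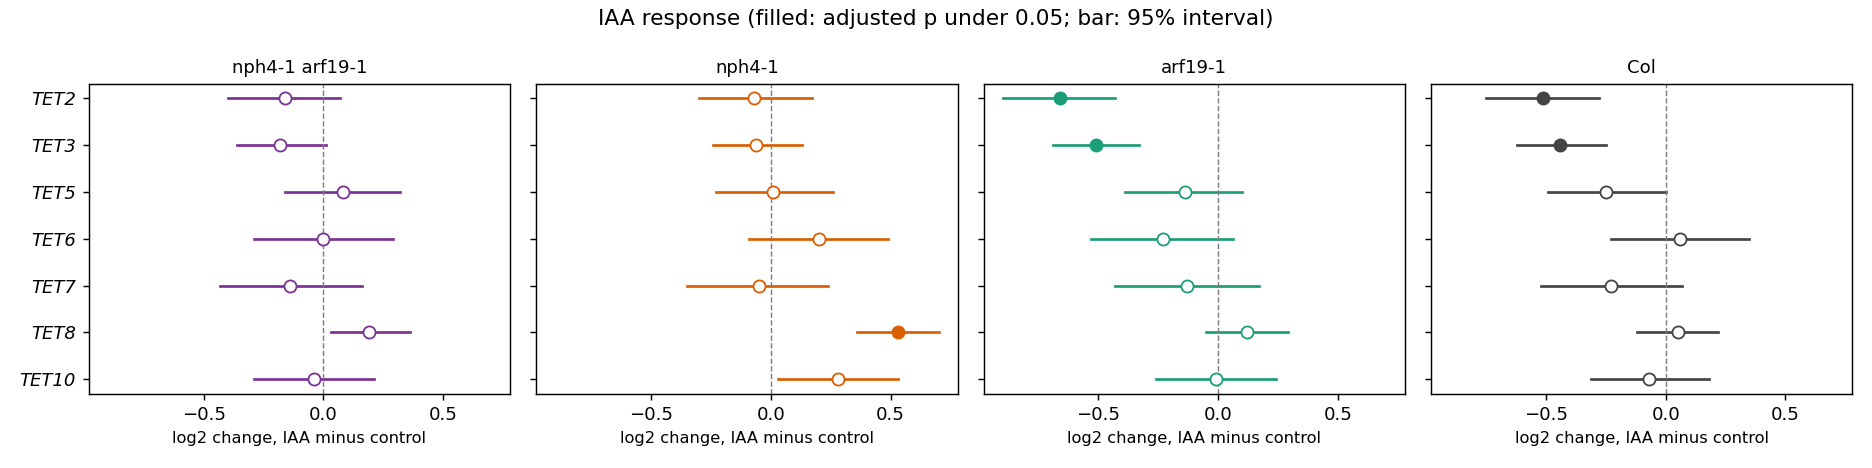
The log2 change with IAA (horizontal axis, IAA minus control) of the 7 probe sets (vertical axis) is shown in 1 panel per genotype, with a bar for the 95% interval and a filled point where the limma adjusted p was under 0.05. Filled points appear for TET8 in nph4-1 and for TET2 and TET3 in arf19-1 and Col, and no point is filled in the double mutant.

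TET5 and TET6, a pair known to restrain organ size and cell proliferation together, did not pass in any genotype in the main fit. For TET5 the log2 differences with IAA were 0.08 in the double mutant, 0.01 in nph4-1, -0.14 in arf19-1 and -0.25 in Col (SE 0.12 each). Its Col arrays were at 7.42, 7.79 and 7.62 with IAA and 7.86, 7.76 and 7.95 without, so the groups overlapped, and the unadjusted limma p of 0.046 became 0.2 after adjustment. For TET6 the changes were 0.00 in the double mutant, 0.20 in nph4-1, -0.23 in arf19-1 and 0.06 in Col (SE 0.14 each). In arf19-1 TET6 was at 7.79, 7.69 and 7.65 with IAA, against 7.91, 8.01 and 7.91 without it, which did not overlap and did not pass (adjusted p = 0.44 in limma). With array quality weights TET5 (-0.24, limma adjusted p = 0.0097) and TET6 (-0.27, 0.01) both passed in arf19-1. Those weights gave arf19-1 control 2 a weight of 7.9.

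TET7 and TET10 had no called response to IAA either. TET7 had log2 differences of -0.14 in the double mutant, -0.05 in nph4-1, -0.13 in arf19-1 and -0.23 in Col (SE 0.14 each). Its Col arrays were 8.85, 8.84 and 9.34 with IAA and 9.01, 9.04 and 9.67 without, and replicate 3 was the highest of both groups. TET10 had -0.04 in the double mutant, 0.28 in nph4-1, -0.01 in arf19-1 and -0.07 in Col (SE 0.12 each). On the nph4-1 arrays TET10 was at 7.92, 7.65 and 7.69 with IAA, against 7.51, 7.52 and 7.39 without it. These did not overlap, and the limma p of 0.029 was 0.35 after adjustment.

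The second comparison asked whether the responses themselves differed between genotypes. The IAA response of TET8 was larger in nph4-1 than in Col by 0.48 in log2 (SE 0.11, interval 0.24 to 0.72, adjusted p = 0.021 in limma), and this was the 1 call among the 7 members, where 2.83% of all probe sets were called. The difference was positive for all 7 members, with a median of 0.35 against 0.017 over all tested probe sets. These 7 values share the same arrays, and nph4-1 IAA 1 held the highest value of its group for 5 of the 7 members, Col control 3 likewise for 5 of 7. The shared sign did not hold without both arrays, where 5 differences were positive and 2 negative and their median was 0.16. TET6 and TET7 were then at -0.07 and -0.04, against 0.14 and 0.17 with all arrays. Without both arrays TET2 had 0.29, TET3 0.34, TET5 0.12 and TET10 0.16, against 0.44, 0.38, 0.26 and 0.35 with all arrays.

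The TET8 call lay close to the threshold. Over the 24 omissions of 1 array, 4 of which ended the call, the difference stayed between 0.40 and 0.57. It was 0.42 without Col control 3 (limma adjusted p = 0.061), 0.40 without nph4-1 IAA 1 (0.063), 0.46 and 0.47 without nph4-1 control 1 or 2 (0.058 and 0.055), and 0.34 without Col control 3 and nph4-1 IAA 1 together (0.12). With array quality weights it was 0.34 (limma adjusted p = 0.13), and when the fit held nph4-1 and Col alone the adjusted p was 0.2.

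For TET2 and TET3 the difference between the responses of nph4-1 and Col did not pass in the main fit. With the replicate number as a block TET3 passed (0.38, limma adjusted p = 0.049), although same-numbered Col arrays did not all deviate together. The response of nph4-1 minus that of Col was 0.44 for TET2 (SE 0.16, interval 0.11 to 0.78, limma adjusted p = 0.18) and 0.38 for TET3 (SE 0.12, interval 0.12 to 0.64, limma adjusted p = 0.13). The response of the double mutant minus that of Col was 0.35 for TET2 (SE 0.16, interval 0.02 to 0.68) and 0.26 for TET3 (SE 0.12, interval 0.00 to 0.52). Of the 7 members 0 passed in the double mutant against Col, where 4.06% of all probe sets did, and 2 had an unadjusted limma p under 0.05. For arf19-1 against Col 0 of 7 passed in limma, where 0.26% did, and 0 had an unadjusted p under 0.05. The intervals there were -0.48 to 0.18 for TET2, -0.33 to 0.19 for TET3 and -0.17 to 0.31 for TET8.

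Comparisons between the mutants were added after the data had been seen. The IAA response of nph4-1 minus that of arf19-1 was 0.60 for TET2 (SE 0.16, limma adjusted p = 0.058), 0.45 for TET3 (SE 0.12, 0.068) and 0.41 for TET8 (SE 0.11, 0.074). None of them passed, and 0 of 7 members were called where 1.94% of all probe sets were. An unadjusted limma p under 0.05 was seen for 4 of 7, without a share of all probe sets at that level to set beside it. These values lay close to the threshold, and omissions brought them past it. TET2 passed without Col control 3 and nph4-1 IAA 1 (0.59, limma adjusted p = 0.03), without Col control 3 alone (0.60, 0.017), without Col control 2 (0.60, 0.047) and without arf19-1 IAA 2 (0.69, 0.028). The Col arrays are not in this comparison, so omitting them left the value at 0.60 and changed only its pooled spread and adjustment. TET3 passed without arf19-1 control 3 (0.51, limma adjusted p = 0.043) and TET8 without nph4-1 IAA 2 (0.50, 0.012). For TET8 the response of the double mutant minus that of nph4-1 was -0.33 (SE 0.11, interval -0.57 to -0.10, limma adjusted p = 0.73), with 0 of 7 members and 0.298% of all probe sets called and TET8 the 1 member at an unadjusted p under 0.05. Against arf19-1 the response of the double mutant was higher by 0.50 for TET2 (SE 0.16, limma adjusted p = 0.10) and by 0.33 for TET3 (SE 0.12, 0.22). There 0 of 7 members were called where 3.57% of all probe sets were. An unadjusted limma p under 0.05 was seen for 2 members, again without a share of all probe sets at that level. The TET2 difference passed without Col control 3 (0.50, limma adjusted p = 0.035) and without that array and nph4-1 IAA 1 (0.50, 0.03). Neither array is in that comparison, so the value stayed and only its pooled spread and adjustment changed.

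**Figure D3:**
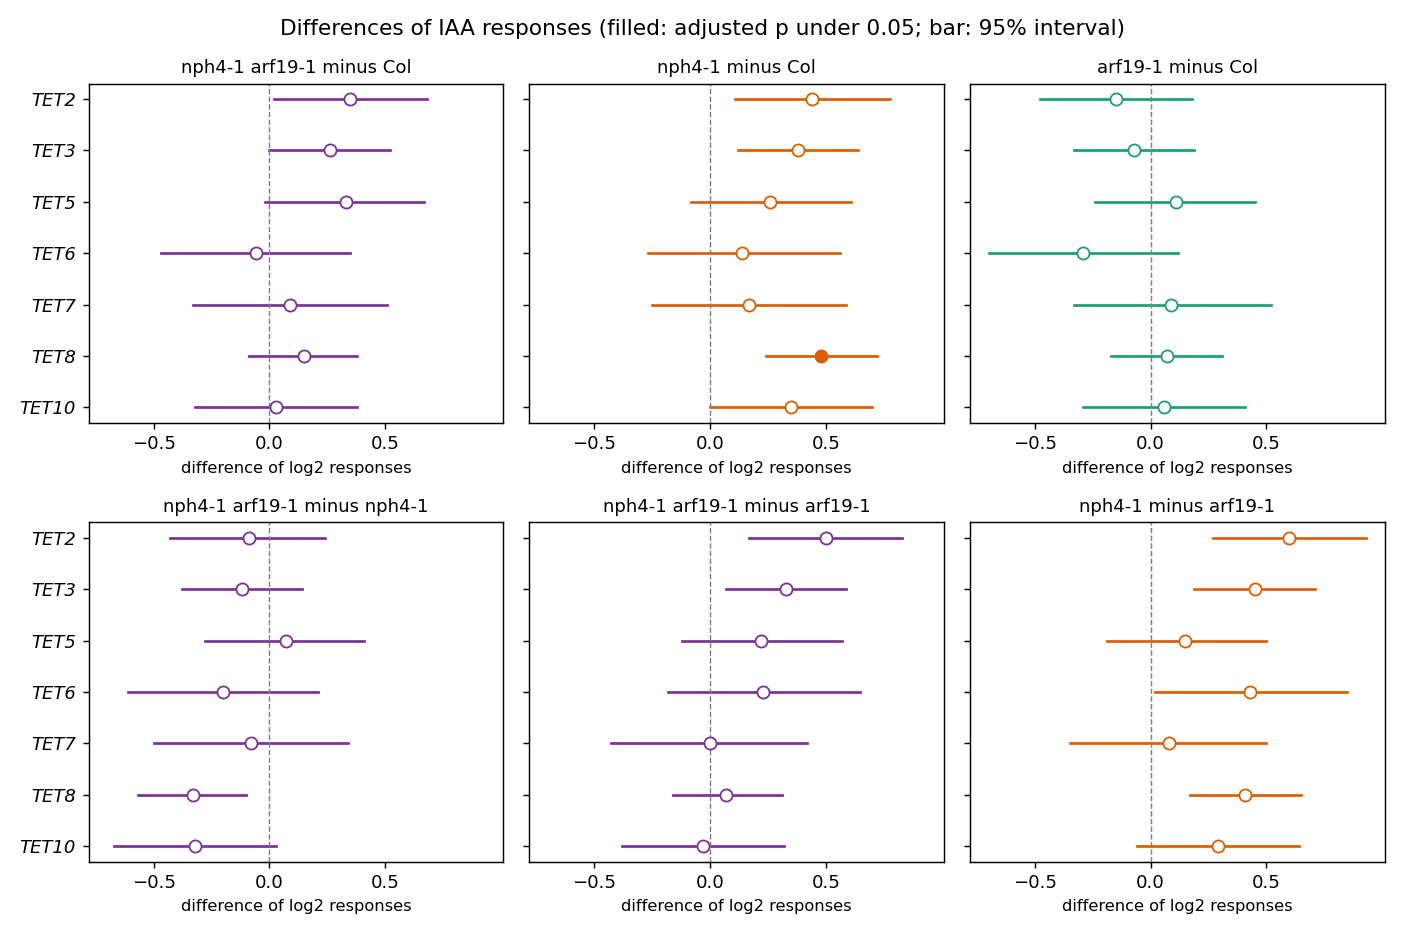
The difference of log2 IAA responses between 2 genotypes (horizontal axis, first minus second as named above each panel) is shown for the 7 probe sets (vertical axis), with bars for the 95% interval and a filled point where the limma adjusted p was under 0.05. The filled point is TET8 in nph4-1 minus Col, at 0.48, and all 7 points lie right of 0 in that panel, which uses all arrays.

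The third comparison asked how the mutants differed from Col at the same treatment. With IAA, nph4-1 had higher signals than Col for TET2, TET3 and TET8, and the double mutant a lower signal for TET10. Without IAA, TET10 was lower in nph4-1 and in the double mutant, and TET3 was lower in the double mutant. No member passed in arf19-1 under either treatment. The comparisons of 1 treatment share their Col arrays.

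With IAA, TET8 was 1.45-fold higher in nph4-1 than in Col (log2 difference 0.54, SE 0.08, interval 0.37 to 0.71, limma adjusted p = 6.5e-05), TET2 1.35-fold (0.43, SE 0.11, adjusted p = 0.012) and TET3 1.24-fold (0.31, SE 0.09, adjusted p = 0.021). None of the 3 overlapped between the groups, and these 3 of 7 members were called where 14% of all probe sets were called in either direction. In the fit of the 6 arrays alone the call of TET8 held, and those of TET2 (limma adjusted p = 0.065) and TET3 (0.18) ended. Without Col control 3 and nph4-1 IAA 1 the value of TET8 was 0.45 (limma adjusted p = 0.00021) and that of TET2 0.42 (0.01). The call of TET3 was lost there (0.23, limma adjusted p = 0.092), without nph4-1 IAA 1 (0.12), without Col IAA 2 or 3 (0.074 and 0.071), and with each array at the same median (0.27, adjusted p = 0.08). Omitting Col IAA 2 also ended the call of TET2 (0.39, limma adjusted p = 0.054).

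The double mutant with IAA did not share this pattern for TET3 and TET8. In an added comparison it was lower than nph4-1 with IAA by 0.50 for TET8 (log2 difference -0.50, SE 0.08, interval -0.67 to -0.33, limma adjusted p = 0.00059) and by 0.39 for TET3 (-0.39, SE 0.09, interval -0.57 to -0.21, limma adjusted p = 0.014). These were 2 of 7 members, where 2.86% of all probe sets were called in either direction. EXPA7 was lower there too (-0.82, SE 0.19, adjusted p = 0.018 in limma), and its part in these differences was not tested. The TET3 call ended without nph4-1 IAA 1 (-0.31, limma adjusted p = 0.089), without nph4-1 arf19-1 IAA 2 (0.096) and with equal array medians (0.051). In a fit of the 6 arrays compared neither passed (0.12 for TET8 and 0.23 for TET3). For TET2 the difference was -0.22 (SE 0.11), which did not pass.

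Against Col with IAA the double mutant differed by 0.03 for TET8 (SE 0.08, interval -0.13 to 0.20), 0.21 for TET2 (SE 0.11) and -0.08 for TET3 (SE 0.09). TET10 was the 1 of 7 members called there, where 19.9% of all probe sets were called in either direction. Its log2 signals were 7.55, 7.63 and 7.35 in the double mutant with IAA and 7.77, 7.90 and 7.97 in Col with IAA, which did not overlap. The difference of -0.37 (SE 0.12, interval -0.62 to -0.13, limma adjusted p = 0.029) corresponds to a 1.3-fold lower signal. It did not pass without Col IAA 2 or 3 (limma adjusted p = 0.075 and 0.12) or without nph4-1 arf19-1 IAA 3 (-0.29, adjusted p = 0.16). In arf19-1 with IAA, 0 of 7 members passed in limma where 1.56% of all probe sets did, and TET10, at -0.30 (SE 0.12), was the 1 with an unadjusted p under 0.05.

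Without IAA, TET10 signals were 7.55, 7.61 and 7.48 in the double mutant, 7.51, 7.52 and 7.39 in nph4-1 and 7.64, 7.78 and 7.35 in arf19-1, against 7.88, 7.81 and 8.16 in Col. All 9 mutant arrays lay below all 3 Col arrays, and Col control 3 was the highest. The log2 difference from Col was -0.40 in the double mutant (SE 0.12, interval -0.65 to -0.15, limma adjusted p = 0.029), -0.48 in nph4-1 (SE 0.12, interval -0.72 to -0.23, limma adjusted p = 0.037) and -0.36 in arf19-1 (SE 0.12, interval -0.61 to -0.11, limma adjusted p = 0.16). Without Col control 3 the values in the double mutant and nph4-1 were -0.30 and -0.37 (limma adjusted p = 0.16 and 0.18), and both calls ended. The double mutant's call also ended without any of its own 3 control arrays (limma adjusted p = 0.055 to 0.11). The call in nph4-1 also ended without any of its own control arrays, without Col control 1 and without arf19-1 IAA 1, so that 6 of the 24 omissions of 1 array ended it. The array arf19-1 IAA 1 is not in that comparison and enters through the pooled fit only.

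TET3 without IAA was at 8.34, 8.12 and 8.14 in the double mutant, against 8.63, 8.53 and 8.47 in Col. The arrays did not overlap, and the signal was 1.27-fold lower (log2 difference -0.34, SE 0.09, interval -0.53 to -0.16, limma adjusted p = 0.012). The call held without Col control 3 and nph4-1 IAA 1 (-0.38, adjusted p = 0.0065) and ended without Col control 1 (limma adjusted p = 0.056) or without nph4-1 arf19-1 control 2 or 3 (0.068 and 0.061). In nph4-1 and arf19-1 the same TET3 difference was -0.07 and -0.01 (SE 0.09 each). Between the double mutant and nph4-1 it was -0.27 (SE 0.09, limma adjusted p = 0.14), and 0 of 7 members passed in that added comparison, where 2.45% of all probe sets did and TET3 alone had an unadjusted p under 0.05.

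In counts without IAA, 2 of 7 members were lower in the double mutant where 13.3% of all probe sets differed in either direction, 1 of 7 in nph4-1 where 2.28% did, and 0 of 7 differed in arf19-1 where 0.819% did, with 1 at an unadjusted limma p under 0.05. All 7 log2 differences of the double mutant were negative, from -0.40 to -0.11, with a median of -0.27 against 0 over all tested probe sets. They share the same Col control arrays, of which Col control 3 was the highest for 5 of 7 members. Without Col control 3 and nph4-1 IAA 1 the median was -0.21, and TET2 was at 0.00 and TET8 at -0.05, against -0.14 and -0.11 with all arrays. TET7 had -0.38 (SE 0.14, limma adjusted p = 0.084), with Col control values of 9.01, 9.04 and 9.67 that spread more than any other group of the 7 members. It was -0.17 without the same pair of arrays (limma adjusted p = 0.44), and it passed without Col control 1 (-0.50, 0.048) or Col control 2 (-0.48, 0.034). With the replicate number as a block TET7 also passed, at -0.38 (limma adjusted p just under 0.05), although same-numbered Col arrays did not all deviate together. TET5, at -0.27, passed without nph4-1 arf19-1 control 1 (-0.42, limma adjusted p = 0.018). The root hair marker EXPA7 was also lower in the double mutant, by 0.64 without IAA (log2 difference -0.64, SE 0.19, adjusted p = 0.031) and by 1.03 with IAA (-1.03, SE 0.19, adjusted p = 0.00039). Its part in the TET3 and TET10 differences was not tested. In fits of only the 6 arrays of a comparison, the TET3 and TET10 calls without IAA ended (limma adjusted p = 0.12 for both in the double mutant, 0.2 for TET10 in nph4-1).

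**Figure D4:**
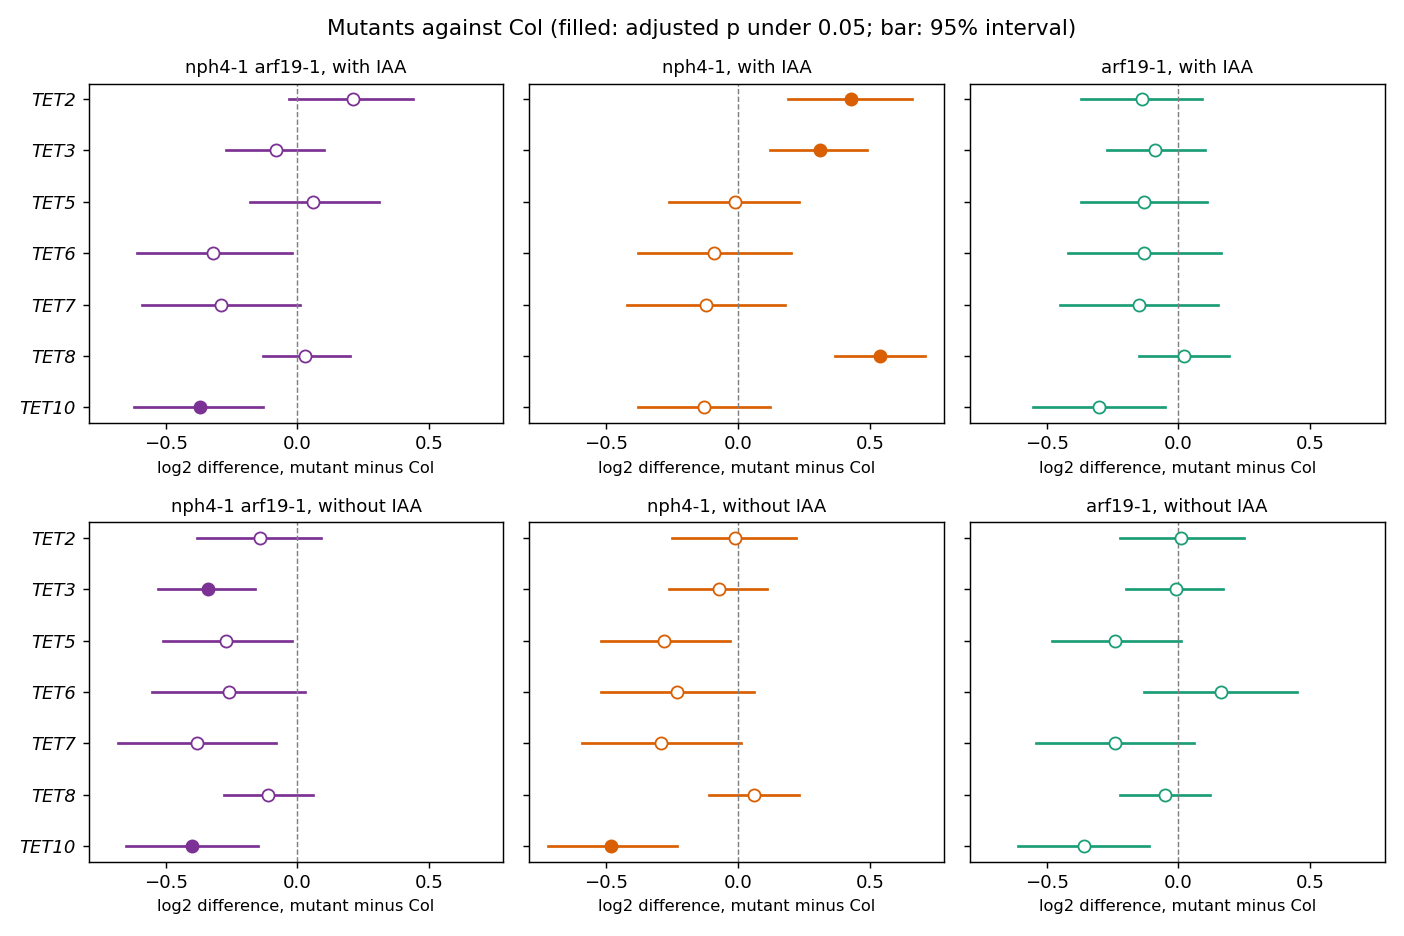
The log2 difference of each mutant from Col (horizontal axis) is shown for the 7 probe sets (vertical axis), with IAA in the upper row and without it in the lower row, bars for the 95% interval and filled points where the limma adjusted p was under 0.05. TET2, TET3 and TET8 are filled for nph4-1 with IAA, right of 0, and TET3 or TET10 are filled left of 0 for the double mutant and nph4-1.

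Across the 8 group means TET2 and TET3 had the most similar profiles among the members (Pearson r = 0.88, n = 8 group means). The profile of TET8 was like neither of them (r = 0.04 with TET2 and 0.09 with TET3). Over all 8615 other tested probe sets with 1 gene, the profiles most like that of TET2 were those of AT3G52480 (r = 0.985), AT5G11070 (0.975) and AT2G20480 (0.973). For TET3 they were AT4G39675 and AT2G16990 (both 0.977) and AT1G73620 (0.969), and for TET8 AT3G47836 (0.97), AT1G52600 (0.966) and AT1G47655 (0.964). These correlations rest on 8 means of the same 24 arrays and describe likeness of profile only.

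Genes of extracellular vesicles and of plasma membrane domains were barely covered by the annotation. The signal of a listed gene without a probe set of its own there is not known here. Of 15 listed vesicle and secretion genes 2 had such a probe set, the RNA helicases RH11 and RH37. Both were tested, and neither passed in any of the 18 comparisons. Their log2 responses to IAA in nph4-1, where TET8 rose, were -0.25 (SE 0.15) and -0.26 (SE 0.16). Of 7 listed membrane domain genes 3 had such a probe set and 2 were tested, the remorins REM1.2 and REM1.3, scaffold proteins of the plasma membrane. REM1.2 was lower in the double mutant than in Col without IAA (log2 difference -0.52, SE 0.13, limma adjusted p = 0.011), and REM1.3 had -0.35 (SE 0.14, adjusted p = 0.09). In the IAA response of Col the remorins had -0.28 (SE 0.13) and -0.19 (SE 0.14), and neither passed.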

How the data were processed

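The authors deposited 1 table of log2 signal, with 1 value per probe set and array and a floor of 50 in linear units. How they summarised and scaled the arrays is not given in the sources used here. Per the labels, Col control 2 and 3 carry tables that replaced duplicates in an earlier release, and identical values made up at most 0.021% of those above the floor for any 2 arrays.

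Of 22810 probe sets, 64 controls and those at the floor on all 24 arrays were left out, and 15757 were tested with limma 3.58.1 in R 4.3.3 (8 group means, eBayes with trend and robust, 16 residual degrees of freedom, two-sided, Benjamini-Hochberg per comparison over all tested probe sets, threshold 0.05). Signals were not rescaled. Fold changes, standard errors and 95% intervals come from this fit, which pools the spread of all arrays. The model was run on simulated data for the IAA response in Col and for the response of nph4-1 minus that of Col. The simulated noise was independent and had the same spread on every array. It did not include the unequal array weights of the real arrays or members that move together. Names came from the platform annotation and the RefSeq gene table (TAIR10.1), which gives 1 gene for each of the 15 TET probe sets.

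The rule named all TET genes and gave values on each array for those called in at least 1 of 13 planned comparisons, and, for those called in a response, the 3 most similar profiles. The members and lists were chosen with earlier results of these data known, and 5 comparisons were added later. Same-numbered IAA and control arrays deviated together in the double mutant (r 0.18 to 0.50) and nph4-1 (0.32 to 0.42), past the limit of 0.1 for pairing. In arf19-1 (0.00 to 0.29) and Col (-0.10 to 0.47) not all pairs passed that limit. The main fit did not pair arrays, in the double mutant and nph4-1 either. An alternative fit with the replicate number as a block shared its effects over all genotypes, and pairs within a genotype were not fitted.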

Additional observations from a re-analysis of the deposited data

Results flagged for a closer look

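The IAA response of TET8 differed between nph4-1 and Col in a direct test of the difference, by 0.48 in log2 (SE 0.11, limma adjusted p = 0.021). The log2 signal was 0.53 higher with IAA in nph4-1 and 0.05 higher in Col. All 3 nph4-1 IAA arrays lay above all 3 nph4-1 control arrays. The adjusted p ranged from 0.0031 to 0.063 over the omissions of 1 array, 4 of which ended the call, and from 0.014 to 0.20 over the other alternatives.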

How the results depend on the processing

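Of 4158 recomputed values of the 7 members in 18 comparisons, 4082 kept their side of the threshold, 47 lost a call, 29 gained one and 0 called values changed sign. The share of all probe sets called is given here for the main fit only, so counts under other settings have no background beside them. The number of TET probe sets called varied with the setting. In a fit of only the arrays compared, which leaves few residual degrees of freedom, it was 0 for the IAA responses of nph4-1 and Col, 0 for nph4-1 and for the double mutant against Col without IAA, 1 for nph4-1 against Col with IAA, 0 for the response of nph4-1 minus that of Col and 0 for the double mutant against nph4-1 with IAA. With quality weights for the arrays (highest 7.9, for arf19-1 control 2) it was 5 for the IAA response in arf19-1, where TET5, TET6 and TET8 joined. Against Col without IAA the weights gave 0 for nph4-1 and 1 for the double mutant. They gave 0 for the response of nph4-1 minus that of Col, 3 for that of the double mutant minus arf19-1 and 3 for nph4-1 minus arf19-1. For the double mutant against nph4-1 without IAA they gave 2. Without Col control 3 and nph4-1 IAA 1, chosen after seeing the data, it was 0 and 1 for nph4-1 and the double mutant against Col without IAA, 0 for the response of nph4-1 minus that of Col, 1 each for the responses of the double mutant and of nph4-1 minus that of arf19-1, and 1 for the double mutant against nph4-1 with IAA. Without the filter at the floor it was 0 for nph4-1 against Col without IAA. For the response of nph4-1 minus that of arf19-1 it was 1 with quantile normalization, 1 with equal medians and 2 with plain eBayes, and for the double mutant against nph4-1 with IAA it was 1 with equal medians. With the replicate number as a block it was 2 for the response of nph4-1 minus that of Col (TET3 joined, 0.38, limma adjusted p = 0.049) and 1 for nph4-1 minus arf19-1. The block also gave 3 for the double mutant against Col without IAA, where TET7 joined. The block ended no call. The cause of these shifts was not tested. Over the omissions of 1 array the count stayed at 0, 1, 2 and 2 for the IAA responses of the double mutant, nph4-1, arf19-1 and Col. It ran from 0 to 1 for nph4-1 and from 0 to 3 for the double mutant against Col without IAA, from 1 to 3 and from 0 to 1 for the same with IAA, from 0 to 1 for the response of nph4-1 minus that of Col, from 0 to 1 for the responses of the double mutant and of nph4-1 minus that of arf19-1, and from 1 to 2 for the double mutant against nph4-1 with IAA. A pseudocount and a background correction could not be varied, because the values were deposited as log2 signal. The number of arrays limits the precision: the SE of a member was 0.08 to 0.14 for a change and 0.11 to 0.20 for a difference of responses.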

Other observations

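Within groups, after each group mean was taken off, the 24 arrays still moved several members together. The Pearson r was 0.61 for TET6 and TET10, 0.59 for TET2 and TET7, 0.57 for TET5 and TET10 and 0.54 for TET5 and TET8. TET2 and TET3, whose group means had the most similar profiles, had an r of -0.01 within groups. The points share arrays and their scaling, and the values are descriptive.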
